A study of Mus musculus with 16 samples.

Results

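The proteasome subunit genes are the 38 mouse protein-coding genes of GENCODE M21 whose symbols start with Psma, Psmb, Psmc or Psmd followed by a digit, with Psmb8 and Psmb9 left out. All 38 were found, by Ensembl identifier without its version, among the 33399 genes of the count table. Of these, 37 had enough counts to be tested in a table of 16400 tested genes. The gene left out was Psmb11, a beta subunit of thymus epithelium, which had between 0 and 1 counts in every library. The symbol rule also took in 4 genes that are not stable subunits of the complex. Psmd5, Psmd9 and Psmd10 encode chaperones that help to assemble the base, and Psmc3ip encodes a partner of the meiotic recombinases.

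Bulk RNA sequencing was done on ventricles of 16 C57BL/6 wild-type mice, in 4 groups of 4, with control and CKD mice of each sex. CKD stands for chronic kidney disease, which was induced from 8 weeks of age with 6 weeks of chow containing 0.25% adenine in alternation with plain chow. The dose was set to hold the median blood urea nitrogen, a marker of lost kidney function, between 40 and 70 mg/dL. Control mice ate plain chow for the same 6 weeks. No mouse carried a transgene or a deleted gene, and the urea value of each mouse was not used here. The number after a group name only names a library and pairs it with no other.

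The proteasome is the barrel-shaped protease that degrades proteins tagged with ubiquitin in the cytosol and nucleus. Its core particle is built of alpha rings, which form the gate, and beta rings, which hold the proteolytic sites. The regulatory particle caps the core. Its base unfolds the substrate with a ring of ATPases, and its lid removes the ubiquitin chain. Heart muscle renews its contractile proteins partly through this route, and transcription of the subunit genes is driven by NFE2L1, a factor that is stabilised when the proteasome is inhibited and that binds antioxidant response elements.

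Levels are given as CPM, counts scaled to a common library size with edgeR's TMM factors. Total counts per library ran from 10203707 to 13626039. The summed level of 9 heart muscle cell markers was between 31405 and 51617 CPM in every library, and that of 3 lung markers was at most 6.01 CPM. In a bulk sample, fewer cells of a type and less RNA per cell cannot be told apart. One library stood apart from the others, male CKD 4. It had the highest heart muscle cell sum, 51617 CPM. Its sums for 6 fibroblast markers (166 CPM against 633 to 986 elsewhere), 6 endothelial markers (589 against 792 to 1421) and 7 pericyte and smooth muscle markers (722 against 1229 to 1711) were the lowest of the 16. Its sum for 6 macrophage markers was also the lowest, at 77.0 CPM against 116 to 185 elsewhere. Libraries also differed in the balance of GC-rich and GC-poor genes. Tested genes were cut into 5 equal parts by the GC content of their annotated transcripts. The log2 level of each gene was taken relative to its mean over the libraries. The median of the part richest in GC minus that of the poorest ran from -0.70 in female CKD 1 to 0.63 in male control 3.

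Promoters of 5 members are shown here. Psmc1, Psmd13 and Psmd1 are among the 4 members with the lowest p for CKD, though edgeR called none of them. Psmb5 and Psmb6 encode catalytic beta subunits. Each runs from 250 bases before to 50 bases after the gene start in RefSeq (GRCm38.p6), 5′ to 3′ on the gene's own strand. Capitals mark matches, on either strand, to the core of the antioxidant response element, TGANNNNGC, or to the CCAAT box. They stand at chr12:100109952-100110251 (plus strand), chr7:140882144-140882443 (plus strand), chr1:86064369-86064668 (plus strand), chr14:54617946-54618245 (minus strand) and chr11:70525107-70525406 (plus strand), in that order.
Psmc1: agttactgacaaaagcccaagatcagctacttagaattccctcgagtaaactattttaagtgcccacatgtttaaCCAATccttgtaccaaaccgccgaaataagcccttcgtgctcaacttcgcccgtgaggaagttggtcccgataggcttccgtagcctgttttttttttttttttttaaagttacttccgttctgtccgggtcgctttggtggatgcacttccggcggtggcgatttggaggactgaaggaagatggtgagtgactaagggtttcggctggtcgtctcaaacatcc
Psmd13: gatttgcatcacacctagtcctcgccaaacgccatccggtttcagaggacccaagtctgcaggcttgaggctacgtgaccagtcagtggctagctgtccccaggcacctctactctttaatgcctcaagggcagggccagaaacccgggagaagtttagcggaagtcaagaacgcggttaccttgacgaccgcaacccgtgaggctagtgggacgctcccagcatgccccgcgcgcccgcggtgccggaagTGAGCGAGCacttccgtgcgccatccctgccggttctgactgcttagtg
Psmd1: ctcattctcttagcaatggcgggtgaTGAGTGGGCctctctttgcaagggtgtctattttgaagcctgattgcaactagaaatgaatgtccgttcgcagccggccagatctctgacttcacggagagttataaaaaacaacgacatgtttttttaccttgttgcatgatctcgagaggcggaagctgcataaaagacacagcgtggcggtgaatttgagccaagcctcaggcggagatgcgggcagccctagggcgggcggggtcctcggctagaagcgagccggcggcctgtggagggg
Psmb5: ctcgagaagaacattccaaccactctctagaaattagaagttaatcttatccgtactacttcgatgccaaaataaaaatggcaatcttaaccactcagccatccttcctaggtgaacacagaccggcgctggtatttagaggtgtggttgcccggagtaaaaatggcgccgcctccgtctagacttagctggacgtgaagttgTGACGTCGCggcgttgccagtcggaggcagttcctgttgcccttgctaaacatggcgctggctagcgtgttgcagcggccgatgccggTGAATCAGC
Psmb6: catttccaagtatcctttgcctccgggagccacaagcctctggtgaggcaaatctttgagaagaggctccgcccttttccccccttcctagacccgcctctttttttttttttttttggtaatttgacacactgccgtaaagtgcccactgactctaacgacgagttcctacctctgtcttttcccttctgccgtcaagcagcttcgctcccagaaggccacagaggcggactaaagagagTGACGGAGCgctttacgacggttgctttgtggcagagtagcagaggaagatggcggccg

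Psmb5 held the element core at 47 bases before and 41 bases after its start, and Psmb6 held it at 9 bases before. In Psmd13 the core lay 1 base after the start and in Psmd1 at 224 bases before it. Psmc1 held a CCAAT box at 175 bases before the start and no element core in this window. Of the 38 members, 31 had an entry in the table, with 33 promoters between them. The element core was present in 19 of the 33 (57.6%), beside 41.3% of all 32851 promoters of the same length. A CCAAT box was present in 13 of the 33 (39.4%), beside 37.4% of all. A match is a description of the letters and was not tied to any measured binding.

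Levels in the 8 control mice spanned a wide range even within the complex. CPM values were divided by the kilobases of annotated exon, taken over all transcripts of a gene, for this comparison between genes. That length can differ from the length of the transcript in use. It was 899 bases for Psmb5 and 4595 for Psmb1, whose mean counts were 1406 and 1708, so the order depends in part on annotated length. Psmb5, which carries the chymotrypsin-like site, stood highest at 128 ± 19.2 CPM per kilobase (SD, n = 8). The alpha subunit gene Psma6 came next at 108 ± 8.79 and the ATPase gene Psmc3 at 94.2 ± 7.03. The ranges of Psmb5 and Psma6 over the 8 controls overlapped, from 111 to 171 and from 100 to 126 CPM per kilobase. From Psmc3 down to the lid gene Psmd11, at 12.9 ± 1.25, each gene and the next one in the order differed by less than the larger of their SDs, apart from Psmc3 over Psmc5, Psmd2 over Psma4, Psma4 over Psma5 and Psmd12 over Psma1. The base chaperone genes were lower, at 8.15 ± 1.17 for Psmd10, 3.79 ± 0.306 for Psmd5 and 2.93 ± 0.451 for Psmd9. Psmc3ip stood at 1.86 ± 0.271. Psma8, the testis form of an alpha subunit, stood lowest of the tested members at 0.448 ± 0.168, and its count in a library was between 5 and 26.

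**Figure D1:**
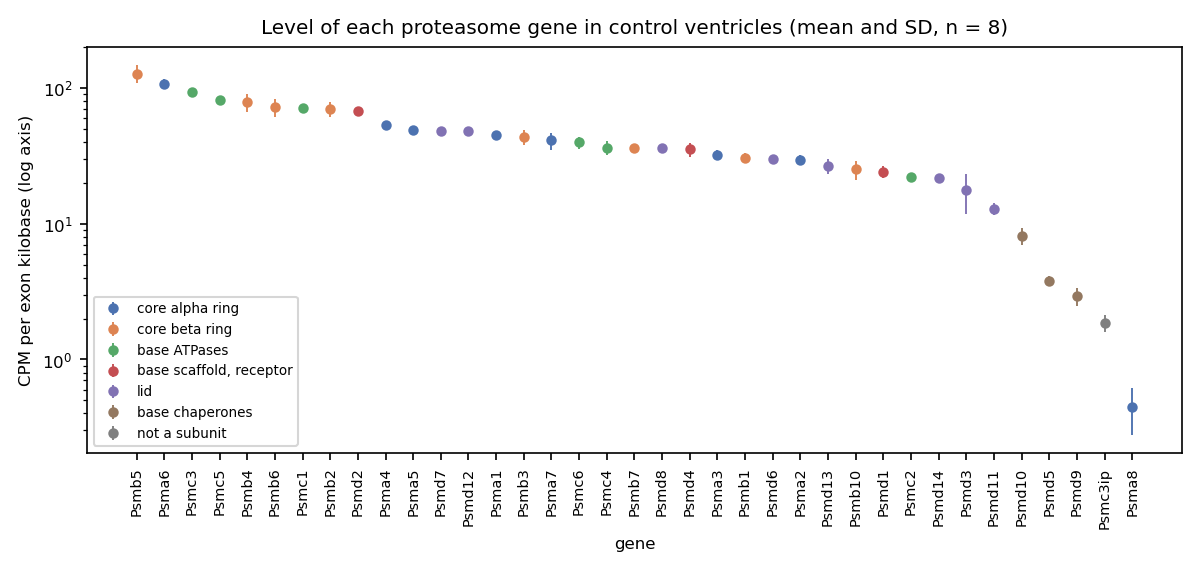
Level of each of the 37 tested members in the 8 control ventricles, in CPM per kilobase of exon on a log axis, as mean and SD, coloured by role. Subunit genes lie between 12.9 (Psmd11) and 128 (Psmb5), and the 3 base chaperones, Psmc3ip and Psma8 lie below 8.2.

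The first comparison asked whether the proteasome genes differ between CKD and control ventricles, over both sexes with sex in the model. Nearly all members had slightly higher fitted levels in CKD, and none passed the test. The fitted log2 fold change was positive for 35 of 37 members, where 50.2% of all tested genes were positive. The median over members was 0.12, and over all tested genes it was 0.0017. At an adjusted p under 0.05 by edgeR's quasi-likelihood test, 0 of 37 members were called, and 0.0854% of all tested genes (14 of 16400) were called. At an unadjusted p under 0.05 the count was 6 members higher and 0 lower, beside 8.12% of all tested genes higher and 7.24% lower. The 6 were Psmc1, Psmc3, Psmd13, Psmd1, Psmd4 and Psmd12, all of the regulatory particle. DESeq2 called 1 of 37 members, Psmc1, beside 2.43% of all tested genes (398 of 16400). Limma-voom with sample quality weights called 0 members, beside 1.21% of genes (199), and its fold changes were positive for 28 of 37 members, with a median of 0.053. The lowest adjusted p of any member in the edgeR fit was 0.136, for Psmc1.

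The direction of the members rested to a large part on male CKD 4. Without it, 25 of 37 members were positive and the median was 0.035. The sample titles carry a code number after the letter C, for which no key was given in the labels. Within the 10 libraries with code number 6 the median was 0.078, with 28 of 37 members positive, and within the other 6, which include male CKD 4, it was 0.17, with 35 positive. The 37 tested members were all above their own 16-library mean in that library, and 31 of 37 (83.8%) were at their highest there, beside 21.8% of all tested genes. The median deviation of the members from their 16-library means was 0.54 in male CKD 4 on a log2(CPM + 1) scale. In the other male CKD libraries it was between -0.16 and -0.12, and in the 4 female CKD libraries between 0.032 and 0.18. Among controls it ran from -0.13 to 0.10, with male control 3 at the top. Male CKD 4 is the library with the lowest fibroblast, endothelial, mural and macrophage marker sums. The part of those cells in the result was not tested. Over all 16 libraries, 7 of 9 heart muscle cell markers were positive for CKD, with a median of 0.17, and none of the markers of these lists was called.

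The deviation of male CKD 4 was a little larger for the core particle than for the regulatory particle, with medians of 0.60 and 0.47. The summed level of all members was 3927 ± 273 CPM in male controls and 4302 ± 1130 in male CKD mice (SD, n = 4 each). In females it was 3907 ± 220.0 in controls and 4369 ± 222 in CKD mice. As a share of a library's raw counts, without TMM scaling, the members took 0.400 ± 0.027% in the 8 controls and 0.421 ± 0.049% in the 8 CKD mice. The male CKD mean held 1 library at 5995 CPM, and the lowest of that group, 3659 CPM, was below every control mouse of either sex.

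**Figure D2:**
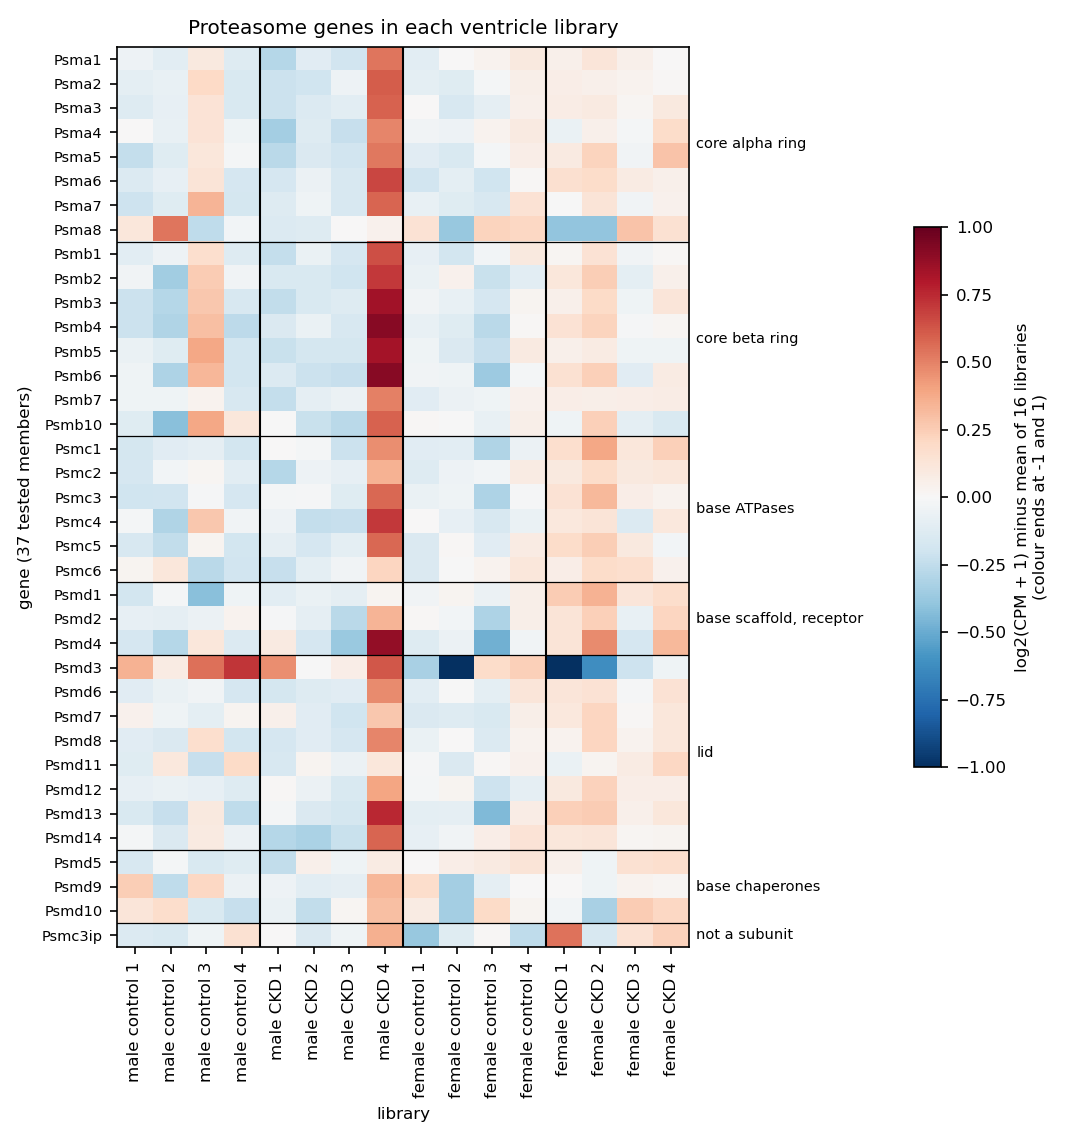
Log2(CPM + 1) of each tested member in each library minus the gene's mean over the 16 libraries, with genes ordered by role and libraries by group; the colour ends at -1 and 1. The column of male CKD 4 is red or pale red for all 37 members, the other male CKD columns are mostly blue, and the Psmd3 row runs the other way from its neighbours in several female libraries.

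The alpha ring has 8 members, whose N-terminal tails close the gate of the core. Their median log2 fold change in CKD was 0.098, 7 of 8 were positive, and 0 passed at an unadjusted p under 0.05. Psma6 had the largest value, 0.21 (SE 0.11, adjusted p 0.366 by edgeR). Psma4 was the flattest gene of the ring, at 0.0040 (SE 0.10), with a 95% interval from -0.21 to 0.22. Psma8 had the lowest value of all members, -0.29 (SE 0.27), on its few counts. The other 5 lay between 0.057 (Psma1) and 0.14 (Psma5).

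The beta ring holds the proteolytic sites of the complex. Its 8 tested members were all positive, with a median of 0.13, and 0 of 8 passed at an unadjusted p under 0.05. The structural genes Psmb1, Psmb2, Psmb3 and Psmb4 lay between 0.10 (Psmb1) and 0.26 (Psmb4). The 3 standard catalytic genes, Psmb5, Psmb6 and Psmb7, were described in every library. Psmb5 (ENSMUSG00000022193, chr14:54614119-54618022, minus strand, mm10) encodes the chymotrypsin-like subunit. Its levels were 112, 108, 153 and 103 CPM in male controls and 101, 104, 103 and 209 in male CKD mice. They were 114, 106, 99.7 and 125 CPM in female controls and 122, 124, 114 and 114 in female CKD mice. The groups overlapped, and the library at 209 CPM was male CKD 4. In the fit for CKD its log2 fold change was 0.10 (SE 0.14, 95% interval -0.19 to 0.40), and without male CKD 4 it was -0.05 (SE 0.09).

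Psmb6 (ENSMUSG00000018286, chr11:70525367-70527858, plus strand, mm10) encodes the caspase-like subunit. Male controls had 138, 115, 179.6 and 125 CPM, and male CKD mice 129, 122, 121 and 268. Female controls had 138, 138, 110.2 and 141 CPM, and female CKD mice 158, 168, 131 and 151. In females 3 of 4 CKD mice were above all 4 controls, and in males only male CKD 4 was above all controls. Its log2 fold change was 0.20 (SE 0.15, 95% interval -0.12 to 0.52) over all 16 libraries and 0.035 without male CKD 4.

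Psmb7 (ENSMUSG00000026750, chr2:38588036-38644087, minus strand, mm10) encodes the trypsin-like subunit. Its levels were 124, 125, 132 and 114 CPM in male controls and 108, 120.3, 123 and 183 in male CKD mice. In females they were 119, 123, 124 and 133 CPM in controls and 135, 133, 135 and 135 in CKD mice. All female CKD mice were above all female controls, by a narrow margin over the highest control. The log2 fold change was 0.11 (SE 0.091, 95% interval -0.08 to 0.30) and was 0.021 without male CKD 4.

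Psmb10 (ENSMUSG00000031897, chr8:105935735-105938444, minus strand, mm10) encodes the form of the trypsin-like subunit that interferon brings into the immunoproteasome. Male controls had 39.1, 31.7, 56.0 and 46.3 CPM, and male CKD mice 42.4, 36.4, 35.2 and 64.6. Female controls had 43.0, 42.5, 40.3 and 44.5 CPM, and female CKD mice 41.4, 50.5, 39.7 and 38.3. The groups overlapped in both sexes. Fitted over all 16 libraries, the log2 fold change was 0.020 (SE 0.13, 95% interval -0.26 to 0.30).

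The ATPase ring of the base unfolds substrates and threads them into the core. All 6 of its genes were positive in CKD, with a median of 0.16, and Psmc1 and Psmc3 passed at an unadjusted p under 0.05. Psmc1 (ENSMUSG00000021178, chr12:100110154-100123405, plus strand, mm10) encodes the ATPase subunit Rpt2, whose tail helps to open the gate. It had 135, 142, 144 and 135 CPM in male controls and 154, 151, 132 and 213 in male CKD mice. It had 142, 142, 125 and 147 CPM in female controls and 172, 201, 166 and 181 in female CKD mice. The 4 female CKD mice were all above the 4 female controls and the 4 male controls. In males 3 of 4 CKD mice were above all male controls and 1, at 132 CPM, was below them. The log2 fold change was 0.30 (SE 0.090, 95% interval 0.11 to 0.49, adjusted p 0.136 by edgeR). Without male CKD 4 it was 0.23 (SE 0.073, adjusted p 0.165). DESeq2 gave 0.30 with an adjusted p of 0.0480, and the adjusted p ran from 0.0480 to 0.858 over the 28 alternatives.

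Psmc3 (ENSMUSG00000002102, chr2:91054009-91066369, plus strand, mm10) encodes the ATPase subunit Rpt5. Its levels were 232, 234, 265 and 238 CPM in male controls and 263, 265, 245 and 399 in male CKD mice. They were 256, 260.0, 215 and 265 CPM in female controls and 296, 335, 279.7 and 273 in female CKD mice. Female CKD mice were again all above female controls, and male CKD mice overlapped with male controls. The log2 fold change was 0.26 (SE 0.097, 95% interval 0.059 to 0.47, adjusted p 0.208 by edgeR), and it was 0.18 without male CKD 4. Psmc2 had 106, 112, 113 and 123 CPM in female controls and 124, 131, 124 and 126 in female CKD mice, with no overlap. Over all libraries its log2 fold change was 0.11 (SE 0.083). The other ATPase genes had values of 0.20 (Psmc5), 0.12 (Psmc4) and 0.079 (Psmc6).

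The base also holds Psmd1 and Psmd2, large scaffolds on which shuttle factors dock, and Psmd4, a receptor for ubiquitin chains. All 3 were positive, with a median of 0.16. Psmd1 (ENSMUSG00000026229, chr1:86064387-86139151, plus strand, mm10) had 163, 184, 139 and 181 CPM in male controls and 173, 177, 174 and 189 in male CKD mice. In females it had 181, 189.6, 178 and 194 CPM in controls and 222, 237, 202 and 209.9 in CKD mice. Male CKD mice lay within or just above the range of male controls, and all female CKD mice were above the other 12 libraries. For CKD the log2 fold change was 0.16 (SE 0.072, 95% interval 0.012 to 0.32, adjusted p 0.285 by edgeR), and 0.15 without male CKD 4. Psmd4 had the largest fold change of all members, 0.34 (SE 0.15, adjusted p 0.296 by edgeR), and Psmd2 had 0.12 (SE 0.090).

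The lid scaffolds the regulatory particle and carries the deubiquitinase Psmd14. Of its 8 genes 7 were positive, with a median of 0.12. Psmd13 (ENSMUSG00000025487, chr7:140881968-140898643, plus strand, mm10), a structural lid subunit, had 88.6, 83.7, 106 and 82.5 CPM in male controls and 97.2, 88.7, 87.0 and 167 in male CKD mice. It had 91.9, 92.5, 72.3 and 104 CPM in female controls and 117, 118, 102 and 106 in female CKD mice. In females 3 of 4 CKD mice were above all controls, and in males the groups overlapped apart from male CKD 4. The log2 fold change was 0.29 (SE 0.13, 95% interval 0.028 to 0.55, adjusted p 0.275 by edgeR), and it was 0.17 without male CKD 4. Psmd12, another structural subunit, had a value of 0.17 (SE 0.079, adjusted p 0.312 by edgeR). The deubiquitinase gene Psmd14 had 0.034 (SE 0.11), and Psmd6, Psmd8 and Psmd11 had 0.13, 0.12 and 0.040.

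Psmd7 (ENSMUSG00000039067, chr8:107580381-107588464, minus strand, mm10) encodes the partner that holds Psmd14 in its active dimer. Male controls had 118, 111, 107 and 117 CPM, and male CKD mice 119, 106, 99.3 and 138. Female controls had 103, 105, 103 and 119 CPM, and female CKD mice 123, 133, 115 and 124. In females only the lowest CKD mouse fell within the range of controls. Over all 16 libraries the log2 fold change was 0.12 (SE 0.078, 95% interval -0.048 to 0.28).

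The base chaperone genes were the flattest group, with log2 fold changes of 0.047 for Psmd5, 0.034 for Psmd10 and 0.020 for Psmd9. Psmc3ip (ENSMUSG00000019303, chr11:101091823-101095436, minus strand, mm10), the recombination gene caught by the symbol rule, had 3.28, 3.25, 3.57 and 4.24 CPM in male controls and 3.74, 3.26, 3.57 and 5.02 in male CKD mice. It had 2.63, 3.33, 3.77 and 2.96 CPM in female controls and 5.86, 3.23, 4.22 and 4.53 in female CKD mice. In females 3 of 4 CKD mice were above all controls and the groups overlapped. In the fit for CKD its log2 fold change was 0.31 (SE 0.15, 95% interval -0.0045 to 0.62, adjusted p 0.332 by edgeR) on 30 to 69 counts per library.

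**Figure D3:**
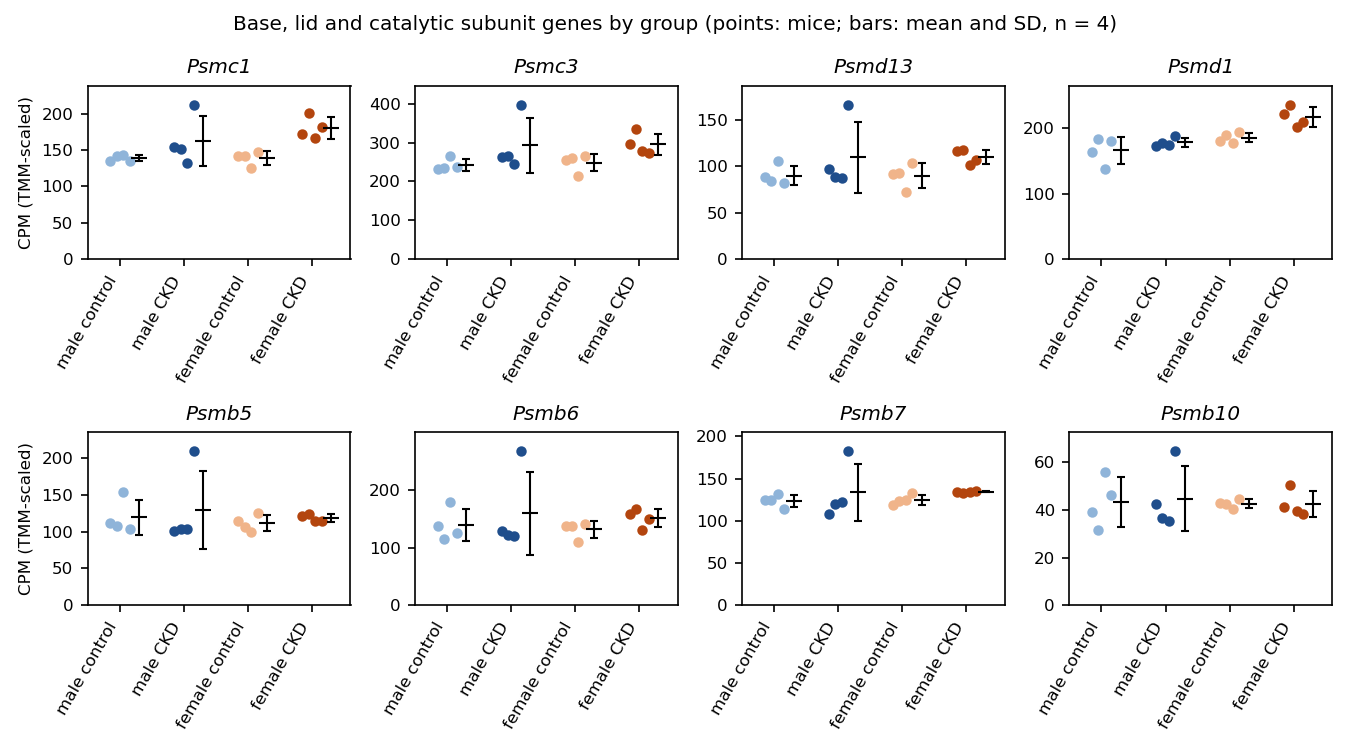
CPM of 8 members in each mouse, by group, with the group mean and SD (n = 4) at the side of the points. Female CKD mice lie above female controls for Psmc1, Psmc3, Psmd1 and Psmb7, and the top male CKD point in every panel is male CKD 4.

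A second comparison took CKD within each sex, from a model with the 4 groups as levels, and the difference between the sexes. In females 34 of 37 members were positive, beside 49.3% of all tested genes, with a median of 0.13. None was called by edgeR, where 0.0549% of all tested genes were called, and 3 passed at an unadjusted p under 0.05 beside 8.34% of all tested genes. The 3 were Psmc1 (0.37, SE 0.13, adjusted p 0.468), Psmd1 (0.23, SE 0.10, adjusted p 0.581) and Psmc3ip (0.49, SE 0.21, adjusted p 0.529). With the 8 female libraries fitted alone, 29 of 37 were positive and the median was 0.077. DESeq2 and limma-voom also called 0 members in females, beside 0.195% and 0.335% of all tested genes.

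The 4 female CKD mice lay above the 4 female controls, with no overlap, for 8 of 37 members (21.6%), beside 5.08% of all tested genes. No member lay below with no overlap, beside 2.49% of genes. The 8 were the alpha subunit gene Psma6, the catalytic Psmb7, the ATPase genes Psmc1, Psmc2 and Psmc3, the scaffold Psmd1 and the lid genes Psmd8 and Psmd12. Psma6 had 124, 133, 124 and 143 CPM in female controls and 159, 162, 151 and 147 in female CKD mice. Psmd8 had 109, 115, 104 and 117 CPM in female controls and 118, 133, 117 and 124 in female CKD mice. Psmd12 had 135, 139, 118 and 128 CPM in female controls and 146, 160.2, 143 and 143 in female CKD mice. For Psmd8 the lowest CKD mouse and the highest control both round to 117 CPM, so the groups were apart by under 1 CPM there.

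Set against the mean of the female controls, the 4 female CKD mice had 30, 33, 28 and 35 of 37 members above it. Their median log2 ratios were 0.13, 0.21, 0.082 and 0.15, or between 5.82% and 15.6% above the control mean. Female CKD mice had summed fibroblast markers of 633 to 986 CPM beside 781 to 891 in female controls. Their heart muscle cell sums were 36687 to 46612 CPM beside 36666 to 40334 in female controls, and the part of these differences in the result was not tested.

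In males 32 of 37 members were positive, beside 51.4% of all tested genes, with a median of 0.11. None was called by edgeR, DESeq2 or limma-voom, which called 0.0%, 0.0732% and 0.0% of all tested genes, and 0 members passed at an unadjusted p under 0.05, beside 6.88% of all tested genes. In males edgeR called 0 genes of the whole table. Without male CKD 4, 7 of 37 members were positive and the median was -0.068. With limma-voom 12 of 37 were positive, with a median of -0.032. Within code number 6 it was 15 of 37, with a median of -0.037, and within the other code numbers 35 of 37, with a median of 0.22. Male CKD 1, 2 and 3 had 11, 9 and 6 of 37 members above the mean of the male controls, with median log2 ratios of -0.11, -0.058 and -0.095. Male CKD 4 had 36 of 37 above it, with a median of 0.58, or 49.7% above the control mean.

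With all 4 male CKD mice, 0 of 37 members had groups without overlap in either direction, beside 1.63% of all tested genes higher and 1.56% lower. Without male CKD 4, Psma4 and Psmd14 lay below all male controls, 2 of 37 members beside 3.23% of genes, and 0 of 37 lay above them, beside 3.01%. Psma4 had 127, 120.5, 139 and 123 CPM in male controls and 99.8, 115 and 108 in male CKD 1, 2 and 3. Psmd14 had 61.3, 55.9, 66.2 and 59.6 CPM in male controls and 50.9, 49.5 and 53.1 in those CKD mice.

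**Figure D4:**
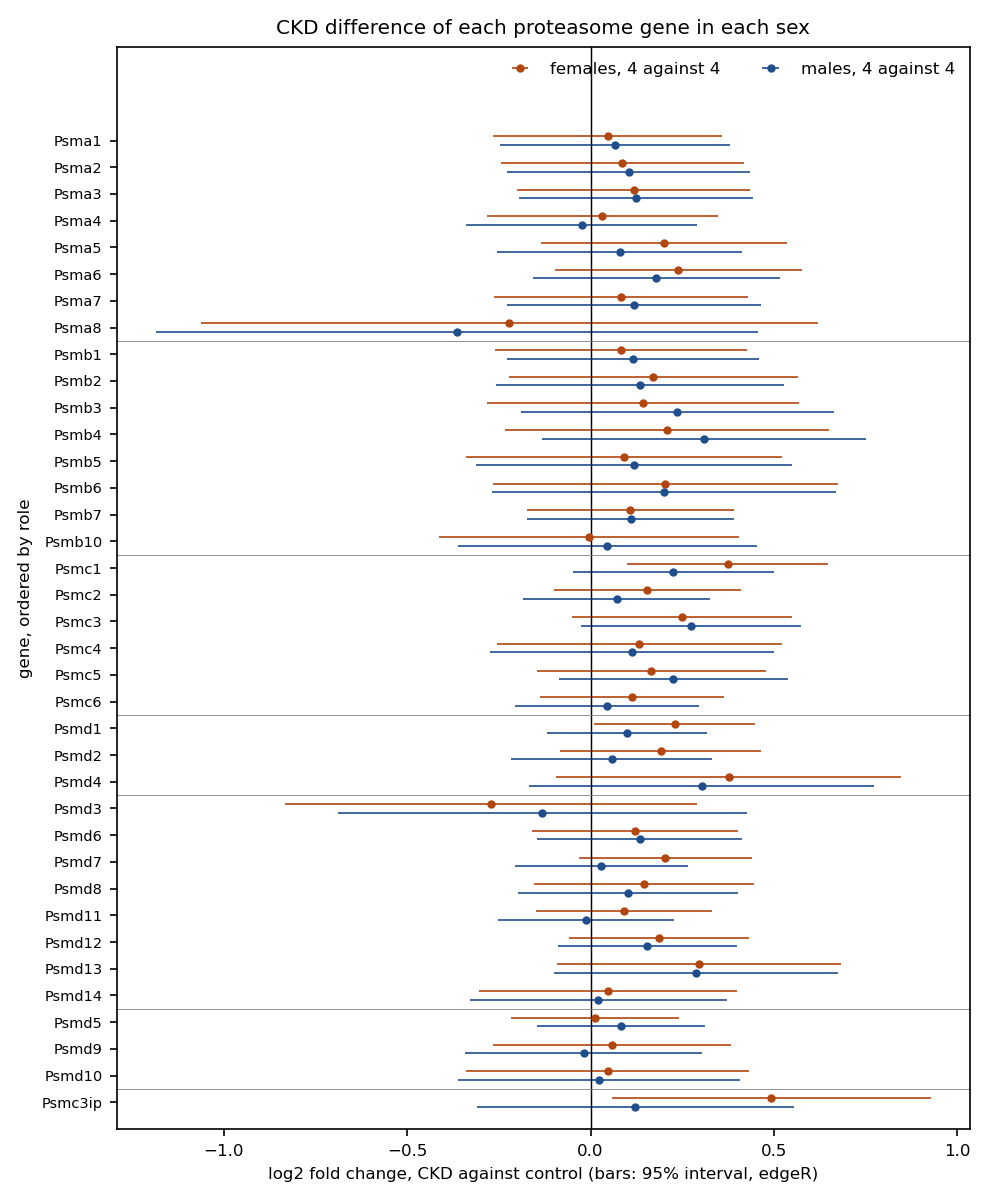
Log2 fold change of CKD against control in females and in males for each tested member, with 95% intervals from the edgeR model of 4 groups. The intervals of females and males overlap for every member, and those of Psmc1, Psmd1 and Psmc3ip in females lie above 0.

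The difference between the sexes was tested as an interaction. No gene of the table and no member was called, with an adjusted p of 1 for each member, and 0 members passed at an unadjusted p under 0.05 beside 1.68% of all tested genes. DESeq2 and limma-voom called 0 members too, and 0.0% of all tested genes. The female value minus the male value was positive for 22 of 37 members, beside 46.0% of all tested genes, with a median of 0.023. The 2 members with the lowest interaction p were Psmc3ip, at 0.37 (SE 0.29, 95% interval -0.24 to 0.98), and Psmd7, at 0.17 (SE 0.16, 95% interval -0.16 to 0.51). Without male CKD 4 the difference was positive for 35 of 37, with a median of 0.18, and still 0 members were called. In the limma-voom fit it was positive for 34 of 37, with a median of 0.18. Within code number 6 it was positive for 35 of 37, with a median of 0.22, and within the other code numbers for 5 of 37, with a median of -0.19.

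The last comparison set female against male ventricles with treatment in the model. With all 16 libraries, 22 of 37 members were higher in females beside 51.0% of all tested genes, the median was 0.012, and 0 were called by edgeR beside 0.171% of all tested genes. This count rested on male CKD 4. Without it, 35 of 37 members were higher in females, with a median of 0.12 beside 0.061 over all tested genes. In that fit 13 of 37 members passed at an unadjusted p under 0.05 by edgeR, beside 4772 of 16594 tested genes, and 0 were called. Limma-voom also had 35 of 37 higher, and the 10 libraries with code number 6 had 34. The member medians in these 2 fits were 0.13 and 0.16, beside 0.044 and 0.065 over all tested genes. Other fits went the other way. With GC and length trends removed, 14 of 37 were higher in females (median -0.032), and with only the other code numbers 13 (median -0.060). With all 16 libraries, 1 member was higher and 1 lower at an unadjusted p under 0.05, beside 9.06% and 16.1% of all tested genes. DESeq2 and limma-voom each called 2 of 37 members, Psmd3 and Psmd1 in both cases, beside 9.03% (1481) and 16.6% (2717) of all tested genes, so the members' share was below that of all genes. Psmd3 (ENSMUSG00000017221, chr11:98682554-98695979, plus strand, mm10) encodes a scaffold subunit of the lid. Its levels were 99.1, 82.2, 114 and 128 CPM in male controls and 108, 77.5, 81.1 and 120.0 in male CKD mice. In females they were 61.9, 36.7, 88.2 and 91.6 CPM in controls and 37.7, 50.2, 67.1 and 75.5 in CKD mice.

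The female values of Psmd3 reached from 36.7 to 91.6 CPM and the male values from 77.5 to 128, so the sexes overlapped. The log2 difference of females from males was -0.67 (SE 0.18, adjusted p 0.0666 by edgeR). The adjusted p ran from 0.0178 with DESeq2 to 0.983 with only the 6 libraries whose code number is not 6. Psmd1 was higher in females by 0.22 (SE 0.072, adjusted p 0.0877 by edgeR), with adjusted p between 0.0239 and 0.983 over the same alternatives. The CKD difference of Psmd3 was -0.20 (SE 0.18, 95% interval -0.58 to 0.18), the only negative value among the lid genes. With trends on GC content and length removed it was -0.010 (SE 0.11).

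Psmd3 also moved with the GC balance of the libraries. Its annotated transcripts hold 56.5% G and C. Psmb10 (58.3%) and Psmb5 (57.0%) hold more, and their log2 differences of females from males were -0.048 (SE 0.13) and -0.11 (SE 0.14). Why Psmd3 differed from them was not tested. The 5 libraries with the lowest Psmd3 levels were the 5 with the lowest balance of GC-rich over GC-poor genes, from -0.70 to -0.17, and all 5 were female. The 4 libraries with the highest Psmd3 levels were the 4 with the highest balance, from 0.38 to 0.63, and all 4 were male. With the trends on GC content and length removed, the sex difference of Psmd3 was -0.33 (SE 0.11, adjusted p 0.136 by edgeR) and that of Psmd1 was 0.18 (SE 0.070, adjusted p 0.176).

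**Figure D5:**
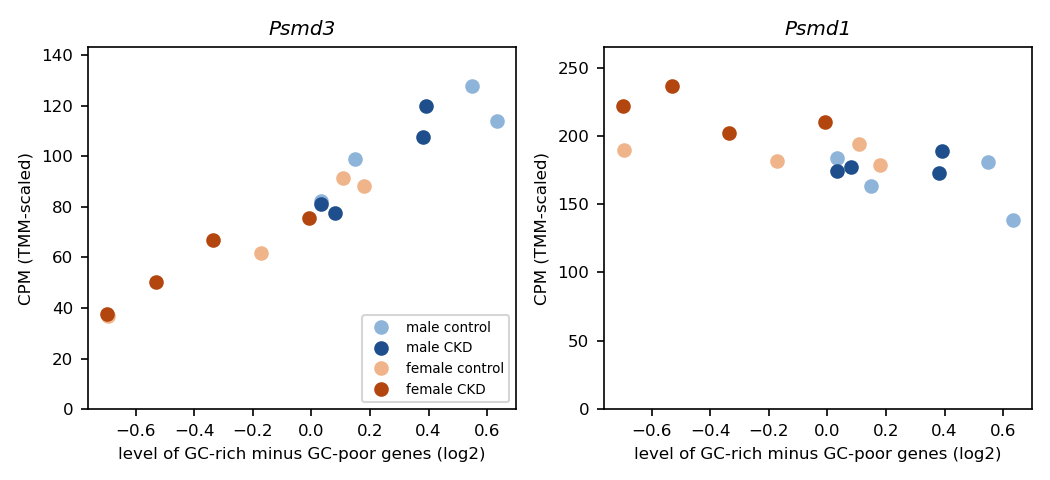
CPM of Psmd3 and Psmd1 in each of the 16 libraries against the library's median log2 level of GC-rich genes minus that of GC-poor genes, coloured by group. Psmd3 is lowest, at 36.7 CPM, in female control 2 with a balance of -0.69 and highest, at 128 CPM, in male control 4 with 0.55. Psmd1 is highest, at 237 CPM, in a library with a balance of -0.53.

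Other genes of the pathway were taken from fixed lists, and none was called for CKD by edgeR at an adjusted p under 0.05. Of the genes that assemble the core, 4 of 5 were positive, with Pomp, the maturation chaperone, at 0.26 (SE 0.12, adjusted p 0.332) and Psmg2 at 0.098 (SE 0.13). Pomp had a mean of 88.2 ± 9.68 CPM in controls and 105 ± 25.3 in CKD mice (SD, n = 8 each), with 162 CPM in male CKD 4. Of the other proteins of the regulatory particle, 5 of 7 were positive. Among them Sem1, a small lid subunit, had 0.22 (SE 0.13) and Uchl5, a deubiquitinase, 0.16 (SE 0.10). Usp14, the deubiquitinase that binds the base reversibly, had -0.056 (SE 0.073).

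Psmb8 and Psmb9, which encode the other catalytic subunits of the immunoproteasome, had the opposite sign to nearly all members. Psmb8 had -0.42 (SE 0.14, adjusted p 0.173 by edgeR) and Psmb9 -0.49 (SE 0.18, adjusted p 0.192), both past an unadjusted p of 0.05 on the lower side. Psmb8 had 13.6, 11.4, 22.0 and 17.3 CPM in male controls and 12.1, 10.3, 9.92 and 10.0 in male CKD mice. In females it had 13.5, 14.2, 11.9 and 18.8 CPM in controls and 12.1, 12.5, 10.7 and 14.2 in CKD mice. Male CKD 4 was at 4.07 CPM for Psmb9, the lowest of the 16 libraries, while its Psmb5 was the highest. Marker lists of some other cell types also had lower fitted levels in CKD. Positive were 0 of 6 endothelial markers (median -0.42), 0 of 3 tested lymphocyte markers (median -0.76) and 0 of 6 fibroblast markers (median -0.41). The same held for 0 of 5 erythroid markers (median -0.36) and 0 of 2 tested Schwann cell markers (median -0.15). Of 6 macrophage markers 1 was positive (median -0.11), and of 7 pericyte and smooth muscle markers 1 (median -0.12). Of 4 atrial markers 1 was positive (median -0.42). Other lists were higher, with 3 of 3 tested neutrophil markers positive (median 0.53), 2 of 2 tested skeletal muscle markers (median 0.59) and 2 of 3 adipocyte markers (median 0.097). Summed fibroblast markers ran from 738 to 861 CPM in male controls and from 802 to 956 in male CKD 1, 2 and 3, with 166 in male CKD 4. The summed endothelial markers ran from 1031 to 1181 CPM in male controls, 589 to 1106 in male CKD mice, 996 to 1266 in female controls and 822 to 1421 in female CKD mice. Lymphocyte markers summed to 3.39 to 6.78, 1.99 to 4.49, 1.67 to 5.61 and 2.21 to 3.26 CPM in the same order, with Cd3e at 0 counts in at least 1 library. The part of these cells in the values of Psmb8 and Psmb9 was not tested. Psmb10, Psme1 and Psme2, the other genes of the immunoproteasome list, had 0.020, 0.040 and 0.035. Psme1 and Psme2 encode the activator that interferon induces. Of the activators and the inhibitor, 4 of 5 were positive, led by Psme4 at 0.18 (SE 0.11).

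Of 8 genes that control proteasome abundance 2 were positive for CKD, beside 50.2% of all tested genes. None of the 8 passed at an unadjusted p under 0.05 by edgeR. Nfe2l1 had -0.23 (SE 0.16, adjusted p 0.485 by edgeR), with 528 ± 142 CPM in controls and 452 ± 123 in CKD mice. Ngly1, which removes glycans from the NFE2L1 protein, had 0.13 (SE 0.083). Among shuttle factors and VCP cofactors 3 of 10 were positive, with Nsfl1c at 0.15 (SE 0.10) and Ufd1 at 0.10 (SE 0.076). Of the ubiquitin and ubiquitin-activating genes 3 of 6 were positive, with Uba1 at -0.16 (SE 0.083) and Rps27a at 0.21 (SE 0.11). Muscle ubiquitin ligases were positive in 7 of 8 cases, with Trim54 at 0.34 (SE 0.12, adjusted p 0.184) and Trim63 at 0.18 (SE 0.096).

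Reads of some members can be shared with copies elsewhere in the genome. Of the stretches of 50 bases in Psmb5 transcripts, 54.1% also occur in another annotated gene, 46.8% in the processed pseudogene Gm3375. Gm3375 had 102 CPM in male CKD 4 and 43.6 to 70.6 CPM in the other libraries, so it was highest in the same library as Psmb5. For Psma5 the share was 50.0%, and it was between 14.1% and 17.8% for Psma3, Psma4, Psmb3, Psmc1, Psmc3ip and Psmd2. Exons on the opposite strand overlap 25.5% of Psmd9 (with Gm26745), 21.2% of Psmc3ip (with Mlx), 11.8% of Psmb7 (with Nek6), 10.1% of Psmd13 (with Sirt3) and 8.25% of Psmc3 (with Slc39a13). No source used here gives the strand setting of the counting, so reads of such pairs cannot be told apart and these levels are uncertain to that extent.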

How the data were processed

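Gene expression was measured by RNA sequencing of mouse ventricles. The authors deposited raw counts per gene in 1 table. The genome was mm10, and the tools listed are STAR 2.6.1d, Subread 1.6.3 (featureCounts) and DESeq2 1.30.1, per the submitters' processing notes. Strand setting and annotation release are not given in the sources. Of 33399 gene identifiers, 33367 matched GENCODE M21.

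Counts were fitted in R 4.3.3 with edgeR 4.0.16 (TMM scaling, filterByExpr with a minimum count of 10 and a minimum total of 15, quasi-likelihood F test), with Benjamini-Hochberg adjustment over the 16400 genes tested and a threshold of 0.05. The tested genes held at least 99.8% of each library's counts. SEs are the log2 fold change divided by the root of F. Groups were taken from the treatment and sex labels. The script was tested on simulated counts with known changes, all larger than the CKD value of any member, and with no library set apart. That test does not cover changes as small as those of the members. Alternatives were a fit by limma 3.58.1 (voom, with a quality weight for each sample), DESeq2 1.42.0, other scalings, filters, the title code number, GC and length trends, each sex alone, and leaving out libraries. Leaving out male CKD 4 together with female control 2 was chosen after seeing the data.

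The members and lists were chosen with earlier results of these data known. Members described in full were the standard catalytic genes, Psmb10, the 4 with the lowest p for CKD, and the 2 with the lowest p for the interaction and for sex. From each related list the 2 genes with the lowest p were named, plus Nfe2l1, Pomp and Usp14. Psme2, Adrm1 and the pseudogene Gm3375 were named after their values were seen. Promoters came from RefSeq (GRCm38.p6), and no entry was used for Psma8, Psmb1, Psmb2, Psmb7, Psmc3, Psmd3 and Psmd7.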

Additional observations from a re-analysis of the deposited data

Results flagged for a closer look

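In groups of 4 libraries, a highest or lowest value was marked where its gap to the next exceeded Dixon's 95% limit relative to the group's range. This held for 31 of 152 values and groups examined, and chance marks about 5% of independent ones. Members measured in the same library are not independent, and the same count was not made over all tested genes. Whether the share marked is particular to the members was therefore not tested. Of the 31, 21 were in male CKD 4, all of them high. That library was above the other 15 for 21.8% of all tested genes and for 83.8% of the members.

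In male CKD 4 the alpha ring genes stood at 196 CPM for Psma1, 171 for Psma2, 197 for Psma3, 97.6 for Psma5, 227 for Psma6 and 194 for Psma7. The beta ring genes stood at 225 CPM for Psmb1, 145 for Psmb2, 189 for Psmb3, 312 for Psmb4, 209 for Psmb5 and 268 for Psmb6. The ATPase genes stood at 399 CPM for Psmc3, 133 for Psmc4 and 180 for Psmc5. The lid genes stood at 122 CPM for Psmd6, 161 for Psmd8, 167 for Psmd13 and 93.3 for Psmd14, and the chaperone gene Psmd9 at 27.0 CPM. The median log2 deviation of the members in that library was 0.535.

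In male control 3 the marked values were high: 164 CPM for Psma7, 204 for Psmb4, 153 for Psmb5 and a median deviation of 0.10. Female control 4 was high for Psmd7, at 119 CPM, and for the median deviation, at 0.057. The low values were Psma8 at 0.526 CPM in female control 2, Psmb6 at 110 CPM in female control 3, and Psmc4 at 73.6 and Psmd6 at 86.7 CPM in female CKD 3.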

How the results depend on the processing

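No member was called for CKD under any alternative other than DESeq2, which called 1, and none was called within a sex or for the interaction. For CKD, 14 genes of the table were called. The count was 398 with DESeq2, 199 with limma-voom, 53 without a filter, 60 with the title code number as a factor, 8 with only code number 6, 0 with only the other code numbers, 27 with GC and length trends removed, 22 without male CKD 4 and female control 2, and 6 to 43 with 1 library left out. The cause of these shifts was not tested. For female against male, DESeq2 called 2 members (of 1481 genes called), limma-voom 2 (of 2717), no filter 1 (of 616), and leaving out 1 library 0 to 1 (Psmd3 without female control 3, adjusted p 0.0255 by edgeR, of 1461). The member median for CKD ran from 0.013 without male CKD 4 and female control 2 to 0.17 with only the other code numbers. The CKD value of Psmb10 turned to -0.0476 with limma-voom, -0.0921 with only the other code numbers and -0.110 without both libraries, and ran from -0.0872 to 0.0872 with 1 library left out. Psmb5 turned to -0.0868 without both libraries and ran from -0.0486 to 0.17 with 1 left out. Psmb7 turned to -0.0012 without both. Of 502 recomputed values, 466 kept their direction and side of the threshold or stayed within the set limits. For the member median that limit was 0.172, the SD of the member mean log2 level within groups, male CKD 4 included. It is wider than the main median of 0.12, so a median near 0 also counted as kept. Fits that called 0 members, like the main fit, counted as kept too. The count therefore says little on how stable the member median is. No paired analysis was possible because the labels carry no replicate numbers. Code numbers in the titles are shared between groups, and with that number (6 or other) as a factor 0 members were called. At 10203707 to 13626039 counts per library, Psmb11 had too few counts to test and Psma8 had 5 to 26.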

Other observations

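Adrm1, a ubiquitin receptor of the regulatory particle that lies outside the symbol rule, had a sex difference close to that of Psmd3. Its levels were 65.8, 57.5, 70.5 and 71.9 CPM in male controls and 72.6, 52.5, 55.7 and 69.9 in male CKD mice. They were 49.2, 29.2, 57.7 and 51.9 CPM in female controls and 32.4, 34.9, 47.9 and 54.0 in female CKD mice. The log2 difference of females from males was -0.53 (adjusted p 0.0654 by edgeR). The 3 lowest libraries for Adrm1, female control 2, female CKD 1 and female CKD 2, were also the 3 lowest for Psmd3 and the 3 with the lowest GC balance.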
